A study of Mus musculus with 8 samples.

Results

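Binding of Sox2BiD, a fusion of SOX2 with the BRG1-interacting domain (BiD) of SS18, was compared with binding of native Sox2 in mouse embryonic fibroblasts (MEFs). The members were the merged peak regions of these 2 libraries, chosen by joining Sox2BiD and native peaks that overlapped by at least 1 bp. The 120594 Sox2BiD peaks and 58162 native peaks gave 128311 regions, of which 49675 were shared, 70682 held Sox2BiD peaks only and 7954 held native peaks only. Merging the 661009 peaks of all 8 libraries gave 306466 regions. The assay was CUT&Tag, in which an antibody directs the transposase Tn5 to its target so that nearby DNA is cut, tagged and sequenced. The antibody was against Flag, the tag on the delivered factor, and the cells were collected at day 3 of reprogramming, with 100000 cells per sample by the labels. The cells came from embryos carrying the OG2 reporter (GFP driven by Oct4 sequences), and the factors were delivered by pMXs retroviral vectors. The other 6 libraries carried Nanog, Oct4 or Nr5a2, native or with BiD. What the sample titles do not give is which further factors the same cells received. All libraries had the same antibody and cell type, and each group held 1 library with no biological replicate. No test between the 2 forms was therefore possible. The 95% intervals below are exact binomial (Clopper-Pearson) for shares and from a normal approximation on the log or linear scale for ratios and differences, and they cover counting error only. A region missing from a list is one in which that list had no called peak. The peak files hold no read totals. By the study's reporting form the native library had more read pairs, in total and uniquely mapped, than the Sox2BiD library, so the shorter list came from the more deeply sequenced one. How many reads were left after duplicates were removed is not given in the sources used here.

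SOX2 is a transcription factor with a high mobility group (HMG) domain that binds the minor groove of DNA at short sites around the letters CATTGT. It is one of the classical reprogramming factors, maintains pluripotency together with OCT4, and also marks neural progenitors. SS18 is a subunit of the BAF chromatin remodelling complex, whose motor is BRG1 (gene Smarca4), and BAF moves or evicts nucleosomes. In fibroblasts many active enhancers are occupied by AP-1, TEAD and RUNX factors.

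The sequences under the peaks show how the classes differed. Each line gives the reference sequence (mm10, + strand) of 81 bases centred on a summit, the position with the most tags in a peak. Shown for each class are its highest-scoring region (by Sox2BiD score in shared regions) and the 2 highest-scoring regions with the SOX motif CCATTGTT in that window. Matches to CCATTGTT, its core CATTGT, or the AP-1 motif (TGACTCA or TGAGTCA) on either strand are in capitals. The nearest protein-coding genes name the lines.
Arl14, shared, chr3:69177682-69177762: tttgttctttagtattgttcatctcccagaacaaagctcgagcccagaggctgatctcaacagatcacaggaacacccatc
Nek7, shared, chr1:138571755-138571835: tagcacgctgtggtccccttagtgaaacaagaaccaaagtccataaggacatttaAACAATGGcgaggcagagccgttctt
Sema6d, shared, chr2:124380468-124380548: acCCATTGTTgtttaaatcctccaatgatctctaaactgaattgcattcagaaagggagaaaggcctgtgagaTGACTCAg
Dmrtb1, Sox2BiD only, chr4:107673874-107673954: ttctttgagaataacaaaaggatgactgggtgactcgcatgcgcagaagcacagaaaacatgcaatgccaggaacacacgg
Cdh5, Sox2BiD only, chr8:103583236-103583316: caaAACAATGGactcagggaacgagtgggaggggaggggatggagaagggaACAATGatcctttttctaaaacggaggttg
Ddc, Sox2BiD only, chr11:11854911-11854991: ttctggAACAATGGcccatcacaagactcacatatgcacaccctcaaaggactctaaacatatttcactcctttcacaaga
Olfm4, native only, chr14:80492737-80492817: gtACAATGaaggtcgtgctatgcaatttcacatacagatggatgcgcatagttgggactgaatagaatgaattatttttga
Mef2c, native only, chr13:83881012-83881092: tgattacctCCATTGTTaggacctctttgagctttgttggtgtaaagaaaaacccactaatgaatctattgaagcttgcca
Brms1l, native only, chr12:55932680-55932760: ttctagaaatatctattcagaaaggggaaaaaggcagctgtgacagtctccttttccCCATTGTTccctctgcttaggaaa
Of these 9 summits, the one by Nek7 lay within 2 kb of a start site, those by Sema6d, Ddc and Mef2c in introns, and the others between genes. The Nek7 summit was nevertheless 47.9 kb from the nearest protein-coding start, since its nearby start site belonged to a gene of another type. None of the 3 highest-scoring regions held the full SOX motif in the printed bases. The native-only lines with a SOX motif ranked at the top 8.65% (Mef2c) and 31.9% (Brms1l) of the native list, and the Sox2BiD-only lines by Cdh5 and Ddc at the top 1.13% and 1.90% of the Sox2BiD list.

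The strongest peaks of each form were found by the other form too. Score is the caller's evidence for a peak, 10 times the negative log10 of its p-value, and ranks were taken within each list because scores depend on depth. All 100 highest-scoring regions of either list were shared. Of the top 10000 regions, 93.5% (95% interval 93.0 to 94.0) of the Sox2BiD list and 98.7% (98.5 to 98.9) of the native list were shared. In steps of 10% of rank, the shared part of the Sox2BiD list fell from 92.1% to 10.7%, and that of the native list from 99.4% to 67.0%. At the median, shared regions stood at the top 25.7% of the Sox2BiD list and Sox2BiD-only regions at the top 65.4%. In the native list the medians were 44.8% for shared and 74.8% for native-only regions. Ranks by summit height, the number of tags at the summit, gave medians of 27.01% and 65.1% in the Sox2BiD list, close to those by score. Sox2BiD-only regions nonetheless reached high in their list: 8937 of them (12.6%, 12.4 to 12.9) had summits of at least 30 tags, beside 375 (4.71%, 4.26 to 5.20) of the native-only regions. Heights are not scaled to depth, so those 2 shares are given as values and not as a difference. With only the 58162 highest-scoring Sox2BiD peaks, as many as native Sox2 had, 20525 regions were Sox2BiD only and 20057 native only. Lists of equal length whose overlaps mostly join single peaks must give nearly equal counts. The cut therefore cannot show where the imbalance between the classes came from, which was not tested. Shared regions had a median width of 1097 bp, Sox2BiD-only regions 706 bp and native-only regions 693 bp.

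**Figure D1:**
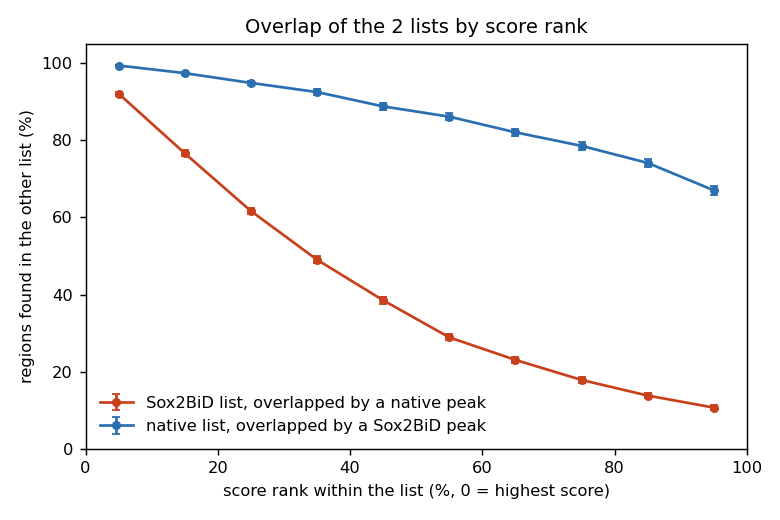
Share of regions (%) of each list that overlapped a peak of the other list, by score rank within the list in steps of 10% (0 is the highest score); bars are exact 95% intervals for counting error. The Sox2BiD curve falls from 92.1% to 10.7% and the native curve from 99.4% to 67.0%.

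Within shared regions the 2 forms peaked at nearly the same place. Of the 49675 shared regions, 48935 held 1 peak of each form. Over all shared regions, the summits of the highest-scoring peak of each form lay a median of 40 bp apart (quartiles 12 and 92 bp). In 77.3% of these regions they were within 100 bp. Across the shared regions the scores of the 2 forms had a Spearman correlation of 0.55 and the heights of 0.54; regions are not independent replicates, and these values are descriptions. The median summit held 31 tags in Sox2BiD and 23 in native Sox2, and the Sox2BiD summit had more tags in 68.1% of shared regions. Heights are not scaled to depth, so tag numbers of the 2 forms are given as values and not as a difference in binding. Shared regions as a whole stood higher in the longer Sox2BiD list (median top 25.7%) than in the native list (44.8%). Percentiles of lists of unlike length are not on the same scale. Regions with the SOX motif had medians of 16.8% in the Sox2BiD list and 46.0% in the native list (1319 regions). The 48356 regions without it stood at 26.0% and 44.8%. The median difference of ranks, native minus Sox2BiD, was 19.4 points with the motif, 11.8 without it and 19.9 at promoters. By height, regions with the motif had medians of 39 tags in Sox2BiD and 23 in native Sox2, against 31 and 23 without it. Median native heights were thus the same with and without a motif at the Sox2BiD summit. Native heights split by the motif at the native summit were not computed. Shared regions with an AP-1 motif had medians of 34 and 23.5 tags. The summit used for motif matches in shared regions was that of Sox2BiD; at the native summit the SOX share was lower, 2.11% (1.99 to 2.24) in place of 2.66% (2.52 to 2.80).

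SOX motifs were most frequent under Sox2BiD-only peaks and rarest under native-only peaks. CCATTGTT lay within 50 bp of the summit in 3.74% (3.597 to 3.88) of Sox2BiD-only regions, 2.66% (2.52 to 2.80) of shared regions and 0.579% (0.424 to 0.772) of native-only regions. Windows of the same length 500 bp to either side held it in 0.400%, 0.427% and 0.441%, so that the native-only share was 1.31 times its flanks, with an interval of 0.906 to 1.91 that includes 1. The ratio to the shared class was 1.41 (1.32 to 1.501) for Sox2BiD-only regions and 0.218 (0.163 to 0.292) for native-only regions. In absolute numbers 2640 Sox2BiD-only, 1319 shared and 46 native-only regions held the motif. The shorter core CATTGT, which is contained in the full motif, was far more common and separated the first 2 classes less, at 22.6%, 21.9% and 14.2% of Sox2BiD-only, shared and native-only regions. The native-only share of the core was still 2.09 times (1.92 to 2.27) that of its flanks, which held it in 6.78%. The OCT4 octamer ATGCAAAT was rare in every class (0.763%, 0.723% and 0.441%), and an octamer accompanied a SOX motif in the same window in only 19 of 2640 Sox2BiD-only and 8 of 1319 shared regions with that motif.

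The higher SOX share of Sox2BiD-only regions held at matched rank. In each of the 10 rank steps of the Sox2BiD list the SOX share was higher in Sox2BiD-only than in shared regions. It went from 5.59% against 3.99% in the highest-scoring 10% to 3.37% against 1.17% in the lowest-scoring 10%. In the native list the shared regions held the motif in 2.45% to 2.80% at all ranks, and native-only regions fell below them in 9 of 10 steps. The exception was the highest 10%, where 1 of 33 native-only regions held it (3.03%).

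Motifs of fibroblast factors were less frequent in Sox2BiD-only than in shared regions. AP-1 motifs lay at 9.94% (9.68 to 10.2) of shared, 8.37% (8.17 to 8.58) of Sox2BiD-only and 4.18% (3.75 to 4.64) of native-only summits. Native-only regions nonetheless carried them 3.10 times (2.61 to 3.68) as often as their flanks. TEAD motifs (CATTCCA or CATTCCT) were found in 8.72% of shared, 6.26% of Sox2BiD-only and 7.78% of native-only regions, and RUNX motifs (AACCACA) in 4.91%, 3.90% and 4.80%. For RUNX, native-only and shared regions differed by -0.118 points, with an interval (-0.625 to 0.389) that includes no difference. At matched rank in the Sox2BiD list, TEAD and RUNX shares were lower in Sox2BiD-only than in shared regions in all 10 steps and the AP-1 share in 8 of 10. In the 2 lowest-scoring steps the AP-1 share of shared regions dropped, to 5.47% in the last, below the 7.98% of Sox2BiD-only regions there. The CTCF motif, that of an insulator protein, was rare but 4.31 times (3.15 to 5.91) as frequent in Sox2BiD-only (276 regions) as in shared regions (45), and higher in all 10 rank steps.

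**Figure D2:**
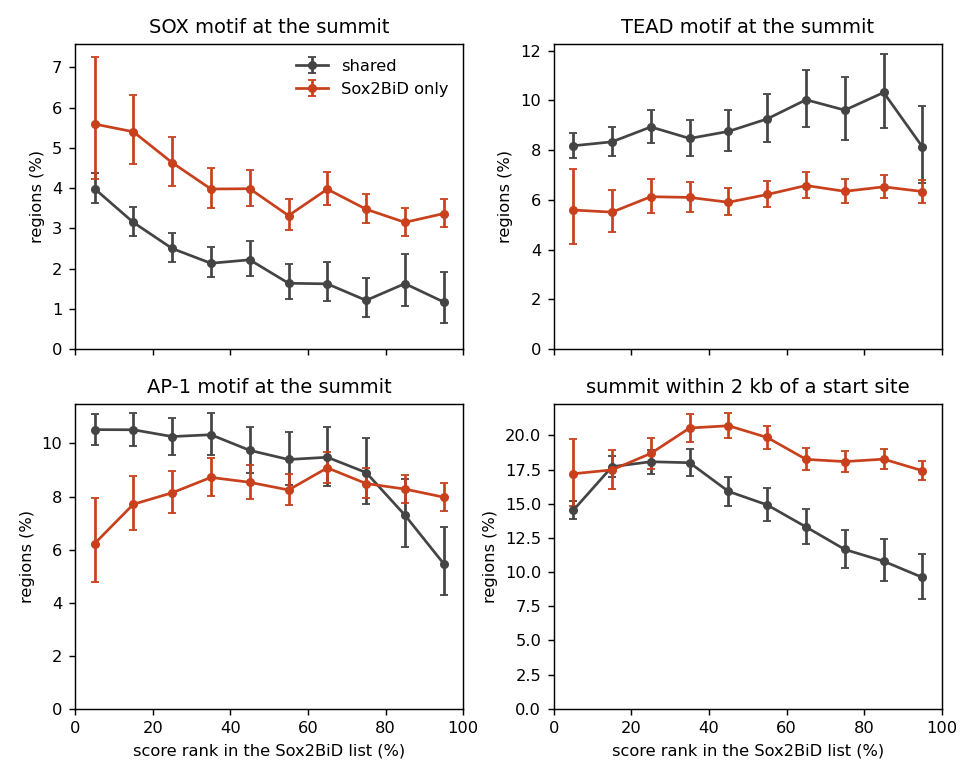
Share of regions (%) with a SOX, TEAD or AP-1 motif within 50 bp of the summit, and with a summit within 2 kb of a start site, by score rank in the Sox2BiD list for shared (grey) and Sox2BiD-only (red) regions; bars are exact 95% intervals for counting error. SOX is higher and TEAD lower in Sox2BiD-only regions in all 10 steps, and the promoter share of shared regions ends at 9.61% while that of Sox2BiD-only regions ends at 17.4%.

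**Figure D3:**
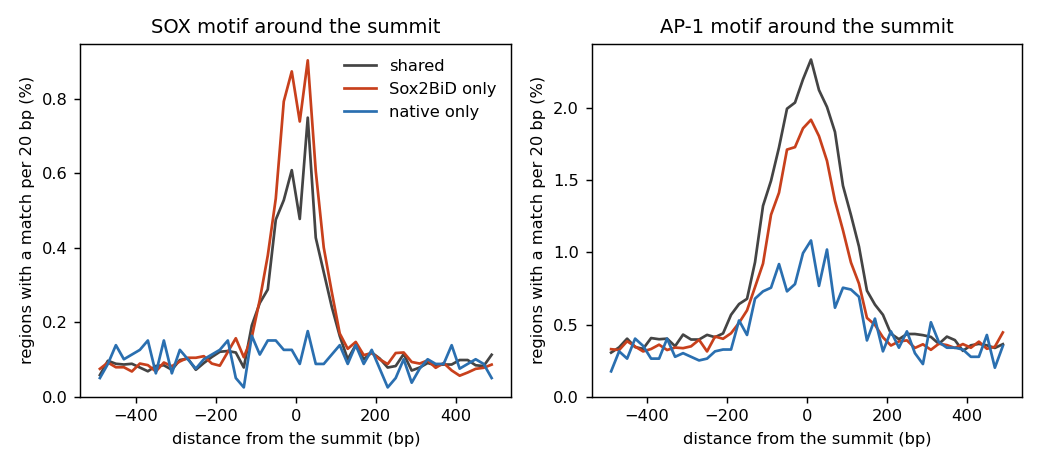
Share of regions (%) with a SOX (left) or AP-1 (right) motif in each 20 bp step, against distance from the summit (bp), for the 3 classes. Both motifs peak at the summits of shared and Sox2BiD-only regions, while in native-only regions the SOX share just before the summit is 0.126%, against 0.873% for Sox2BiD-only regions, and the AP-1 share just after it 1.08%.

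Sox2BiD-only regions lay closest to genes and native-only regions farthest. The median distance from summit to the nearest annotated start site was 10837 bp for Sox2BiD-only, 14285 bp for shared and 22682 bp for native-only regions. Promoters, taken as 2 kb to either side of a start site, held 18.7% (18.4 to 19.03) of Sox2BiD-only, 15.8% (15.5 to 16.1) of shared and 8.37% (7.77 to 9.003) of native-only summits. Sox2BiD-only regions thus exceeded shared regions by 2.96 points (2.53 to 3.39), and native-only regions differed from shared ones by -7.40 points (-8.09 to -6.71). Within 500 bp of a start site were 9.42% of Sox2BiD-only, 8.22% of shared and 2.44% of native-only summits. The promoter share of Sox2BiD-only regions stayed between 17.2% and 20.7% over all rank steps. Shared regions reached 18.1% and dropped to 9.61% at the lowest ranks, and the order of the 2 classes held in 9 of 10 steps. Intergenic summits were 49.6% of the native-only, 39.6% of the shared and 37.1% of the Sox2BiD-only class, and introns held 39.6%, 42.3% and 41.5%. The GC content around the summits had medians of 43.3% in Sox2BiD-only, 41.8% in shared and 39.8% in native-only regions, and its part in the distances and motif shares was not tested. The SOX share was 4.001% (3.84 to 4.16) at distal and 2.58% (2.32 to 2.87) at promoter summits of Sox2BiD-only regions, and 2.76% and 2.11% in the shared class. None of 665 native-only promoter summits held the motif (exact upper limit 0.553%).

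Regions bound by both forms were also those most often occupied in the libraries of the other factors. At least 1 of the 6 other libraries had a peak at 59.1% (58.7 to 59.6) of shared, 45.0% (44.6 to 45.3) of Sox2BiD-only and 32.0% (31.0 to 33.0) of native-only regions. Peaks of native Nanog, a homeodomain factor of pluripotent cells, overlapped 41.3% of shared but 22.2% of Sox2BiD-only regions, a difference of -19.1 points (-19.6 to -18.6). The smallest gap between these classes was for native Nr5a2, an orphan nuclear receptor, with 24.6% and 21.9%. Among native-only regions the shares ran from 8.73% in Nr5a2 to 18.2% in Nanog. In all 10 rank steps of both lists the regions of 1 form were less often occupied by another factor than the shared regions. Shared regions were also wider, with a median of 1097 bp beside 706 bp for Sox2BiD-only and 693 bp for native-only regions. A wider region overlaps a peak of another list more easily, and the part of width in these shares was not tested.

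Occupancy by other factors sorted the regions by motif and position. Among Sox2BiD-only regions the SOX share fell from 4.60% (4.39 to 4.81) where no other library had a peak to 0.330% (0.159 to 0.607) where all 6 had one. In shared regions it fell from 3.06% to 1.27%. The promoter share rose over the same span from 11.3% to 82.7% in Sox2BiD-only and from 8.51% to 69.5% in shared regions. AP-1 motifs were most frequent at an intermediate number of libraries, reaching 12.0% of Sox2BiD-only and 14.3% of shared regions found in 4 other libraries. Native-only regions found in 4, 5 or 6 other libraries numbered 307, 73 and 66, and no SOX motif was seen there. All libraries used the same antibody and cells, and the part that open chromatin has in their common peaks was not tested.

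**Figure D4:**
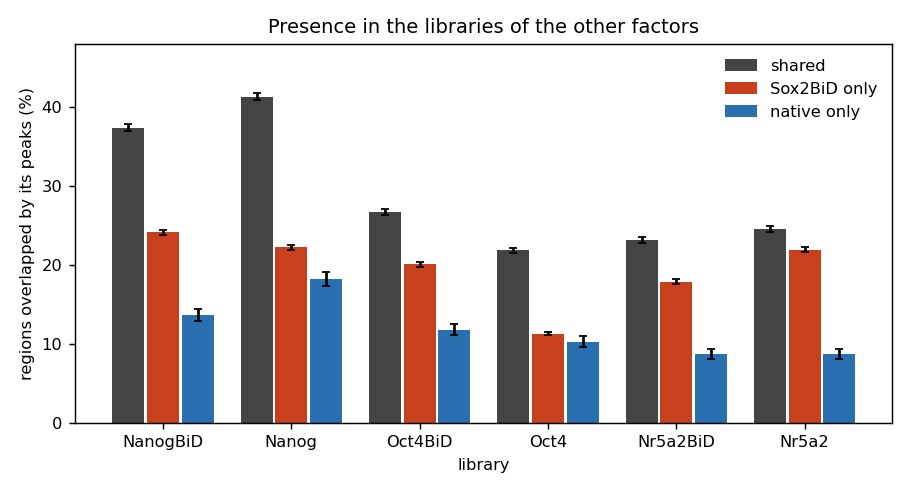
Share of shared, Sox2BiD-only and native-only regions (%) overlapped by a peak of each of the other 6 libraries; bars are drawn from 0, with exact 95% intervals for counting error. Shared regions are highest in every library, from 21.8% in Oct4 to 41.3% in Nanog, and native-only regions lowest.

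At single regions, the 5 shared regions with the highest Sox2BiD scores lay between genes. They were nearest to Arl14 (score 1559 in Sox2BiD and 595 in native Sox2), Adgrl4 (1538 and 1108), Zfp608 (1493 and 1011), Fat4 (1465 and 664) and Klf6 (1462 and 801), with the last 57.5 kb from the start of this zinc finger factor gene. In the native list the regions near Arl14 and Fat4 stood at the top 3.18% and 1.97%. The distances of all 5 to the nearest protein-coding start ran from 44.7 kb to 329 kb. Over all shared regions this distance had a median of 33465 bp and an upper quartile of 124821 bp. The region near Klf6 had peaks in all 6 other libraries, and those near Zfp608 and Fat4 in none. Among Sox2BiD-only regions the highest scores were 907 near Dmrtb1, 899 near Pcsk5, 867 near Amz1, 864 near Aspa and 827 near Cdh5. Their summits were 77, 49, 90, 60 and 72 tags high, and the regions near Pcsk5, Amz1 and Cdh5 had no peak in any other library. Native-only scores ended lower in their list, at 672 near Olfm4, 624 near Rapgef2, 531 near Mdga2, 520 near Ins1 and 510 near Sntg1, with summits of 42 to 48 tags. The native-only region by Olfm4 was also found in 4 other libraries.

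Of 21924 protein-coding genes, 14625 (66.7%) were nearest to at least 1 Sox2BiD-only region within 100 kb, 11079 (50.5%) to a shared region and 3196 (14.6%) to a native-only region. Sox2BiD-only regions were the only kind at 4865 genes (22.2%). A Sox2BiD-only summit lay within 2 kb of a start site of 35.5% of the genes and a shared summit of 21.9%. Taken over all genes, 58.0% of the assigned regions were Sox2BiD only. The shares of all genes include 5510 of the 21924 genes that had no region of any class. In the 6 gene lists below, 3.13% to 15.8% of the members had none. A list with fewer such genes can show higher shares for that reason, and its part in the list shares was not tested. The genes with most Sox2BiD-only regions were long ones. Pde4d, a cyclic AMP phosphodiesterase gene spanning 1504 kb, had 69 of them beside 61 shared and 5 native-only regions. Auts2 followed with 40, Celf2 with 38, Foxp1 and Zbtb20 with 37 each, Utrn with 36, Kalrn with 34, Bach2 and Bnc2 with 33 each and Dlg2 with 32. The lengths of these 10 genes ran from 347 kb (Bach2) to 1973 kb (Dlg2), and Bach2, which encodes a lymphoid repressor, had no native-only region. Native-only regions were most numerous at Arhgap24, Cntnap2 and Robo1, with 8 each, and at Dlg2 and Mdga2, with 7 each. Cntnap2, Robo1, Dlg2 and Mdga2 encode neuronal adhesion, guidance or scaffold proteins, and at Cntnap2 and Robo1 shared regions (17 and 23) outnumbered Sox2BiD-only regions (14 and 15). The part of gene length in these counts was not tested.

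Pluripotency genes had Sox2BiD-only regions at 25 of 32 listed members (78.1%, beside 66.7% of all genes), shared regions at 16 (50%, beside 50.5%) and native-only regions at 5 (15.6%, beside 14.6%). At 11 members (34.4%, beside 22.2%) Sox2BiD-only regions were the only kind, among them Pou5f1, Esrrb, Klf2, Fgf4, Utf1, Lefty1, Lefty2 and Lin28a. The list had 70 Sox2BiD-only, 40 shared and 5 native-only regions, so that 60.9% (51.3 to 69.8) were Sox2BiD only, near the 58.0% of all genes. None of the 70 Sox2BiD-only regions held the SOX motif, beside 3.74% of all Sox2BiD-only regions. By the rule of 3, an approximation and not an exact interval, this allows a share of up to 4.29%. Of the 40 shared regions 5 held it, beside 2.66% of all shared regions. Sall4, a zinc finger gene of the pluripotency network, had 4 Sox2BiD-only regions with scores of 346, 440, 511 and 249, which lay 3.1 kb downstream of a start site and 9.2, 23.3 and 71.4 kb upstream. Their summits were 38, 44, 40 and 26 tags high, and the nearby native-only region 67.8 kb upstream scored 76.6 with 14 tags. Sall4 had no shared region. Lin28b, which encodes a blocker of let-7 microRNA maturation, had a Sox2BiD-only peak of 51 tags (score 538) at 337 bp from a start site and another of 60 tags (score 618) in an intron, whereas its shared region scored 323 in Sox2BiD and 55.4 in native Sox2. Klf5, a Krüppel-like factor gene, had 9 Sox2BiD-only and 5 shared regions; the strongest of the latter, 33.9 kb upstream, scored 772 and 409, and the Sox2BiD-only region at its promoter scored 120 with 22 tags and had peaks in all 6 other libraries. Pou5f1 itself, encoding OCT4, had 2 Sox2BiD-only regions, and Nanog had 3 beside 1 shared region. Nr5a2 and Nr0b1, both nuclear receptor genes, had native-only and shared regions but none of Sox2BiD alone. Dppa4, Dppa5a, Fbxo15 and Gdf3 had no region of any class (12.5% of the list, beside 5510 of all 21924 genes).

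Sox2 itself had 4 shared and 3 Sox2BiD-only regions. The shared region over its exon (chr3:34650157-34651449, 764 bp into the gene) was the one in which native Sox2 stood higher. Its score was 1208 in native Sox2, at the top 0.0232% of that list, and 703 in Sox2BiD, at the top 2.50%. The delivered vectors carry the same coding sequence, and reads from them cannot be told apart from reads of the chromosomal gene. At 90.2 kb and 12.3 kb upstream, shared regions with a SOX motif scored 702 and 822 in Sox2BiD and 539 and 378 in native Sox2. The Sox2BiD-only regions here had summits of 34, 17 and 33 tags.

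Neural progenitor genes, another group that SOX2 is known to regulate, had Sox2BiD-only regions at 24 of 28 members (85.7%, beside 66.7% of all genes), shared regions at 21 (75%, beside 50.5%) and native-only regions at 9 (32.1%, beside 14.6% of all genes). They had 94 Sox2BiD-only, 47 shared and 10 native-only regions, so that 62.3% (54.01 to 70.003) were Sox2BiD only, near the 58.0% of all genes. Lhx2 and Pax6, homeobox genes of forebrain and eye, and Olig2, a helix-loop-helix factor gene, had no other kind of region, with 8, 7 and 4 respectively. At Lhx2 the region 199 bp upstream of a start site was the strongest (score 340, 43 tags), and 7 of its 8 regions had no peak in any other library. Pax6 had scores of 51.4 to 327, and 6 of its 7 regions were absent from the other libraries. One region of Olig2, 32.4 kb upstream, reached a score of 686 with 42 tags and the top 2.79% of the Sox2BiD list. Over the list, 35.1% of the Sox2BiD-only regions had a peak of another factor, beside 45.0% of all Sox2BiD-only regions. Otx1 had 6 Sox2BiD-only regions, 1 shared and 1 native-only.

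Among the 19 genes of the SOX family, 14 (73.7%, beside 66.7% of all genes) had Sox2BiD-only, 13 (68.4%, beside 50.5%) shared and 7 (36.8%, beside 14.6%) native-only regions. They had 94 Sox2BiD-only, 76 shared and 11 native-only regions, so that 51.9% (44.4 to 59.4) were Sox2BiD only, beside 58.0% over all genes. Sox5 had 28 Sox2BiD-only and 16 shared regions, and Sox6, its close relative, 17 and 27. Sox6 also had 5 native-only regions, the most in the list. Both genes are long, and Sox5 spans chr6:143828425-144781977. Sox9, a regulator of cartilage and of many progenitors, had 5 Sox2BiD-only regions, and all 5 were found in at least 1 other library. Sox3 had 1 shared and 1 native-only region. Sox2BiD-only summits with the SOX motif at Sox5 and Sox17 (SOX family) and at Col6a3 (a fibroblast collagen gene) are shown with 50 bases to either side of the summit (mm10, + strand) and the motif in capitals. For each gene the highest-scoring such region is given.
Sox5, chr6:144210844-144210944: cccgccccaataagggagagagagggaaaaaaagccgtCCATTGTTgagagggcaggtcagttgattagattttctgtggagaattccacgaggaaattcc
Sox17, chr1:4577295-4577395: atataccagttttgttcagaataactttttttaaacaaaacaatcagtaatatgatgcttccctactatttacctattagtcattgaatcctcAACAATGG
Col6a3, chr1:90756343-90756443: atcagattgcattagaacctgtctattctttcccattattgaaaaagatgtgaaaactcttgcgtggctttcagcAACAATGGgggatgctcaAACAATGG
The Sox5 region lay in a promoter, 1326 bp upstream of a start site, with a score of 676 and 58 tags, and NanogBiD and Nanog peaks overlapped it. Those at Sox17 (80.0 kb upstream, score 357) and Col6a3 (16.8 kb downstream, score 145) were intergenic. Col6a3 had 2 matches in the window.

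Epithelial genes had the highest part of Sox2BiD-only regions among the 6 lists. Of their regions, 42 (72.4%, 59.1 to 83.3) were Sox2BiD only, 16 were shared and none was native only. Sox2BiD-only regions were found at 19 of 22 genes (86.4%, beside 66.7%), shared regions at 8 (36.4%, beside 50.5%), and at 11 genes (50%, beside 22.2%) no other kind was present. A Sox2BiD-only summit lay within 2 kb of a start site at 10 genes (45.5%, beside 35.5%), and a shared summit at 1 (4.55%, beside 21.9%). Cdh1, which encodes E-cadherin, the adhesion protein of epithelial cells, had 5 Sox2BiD-only regions. Their scores were 164 at 3.6 kb upstream, and 66.5, 114, 67.8 and 80.3 in introns, with summits of 20, 11, 17, 14 and 17 tags. The regions of Cdh1 were thus in the middle and lower ranks of the Sox2BiD list, from the top 46.4% down to 86.0%. Esrp2, an epithelial splicing regulator gene, had stronger ones, with scores of 262 and 447 and summits of 26 and 55 tags, both also found in other libraries. Esrp1 (scores 94.1 and 75.5) and Cldn3 (81.3 and 76.3), a claudin gene, had weak regions only. Dsp, encoding desmoplakin, had 4 Sox2BiD-only and 2 shared regions. Cldn6, Lsr and Pkp3 had no region of any class (13.6% of the list, beside 5510 of all 21924 genes).

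Fibroblast and mesenchymal genes were near both forms. Of 32 members 29 (90.6%, beside 50.5% of all genes) had shared and 29 (90.6%, beside 66.7%) had Sox2BiD-only regions. Native-only regions were found at 9 (28.1%, beside 14.6%). Their 187 Sox2BiD-only regions were 52.4% (47.1 to 57.7) of the total, below the 58.0% of all genes, with 156 shared and 14 native-only regions. At promoters, 16 genes (50%, beside 21.9%) had a shared and 17 (53.1%, beside 35.5%) a Sox2BiD-only summit. Another factor had a peak at 73.1% of the shared and 55.6% of the Sox2BiD-only regions of the list, beside 59.1% and 45.0% of all such regions. Col1a2, encoding a chain of type I collagen, had 14 shared, 9 Sox2BiD-only and 3 native-only regions, and its Sox2BiD-only scores of 51.5 to 164 were low. Fn1, encoding fibronectin, had 8 shared, 4 Sox2BiD-only and 3 native-only regions; one of the native-only regions, 10.8 kb upstream, scored 263. In contrast, Dab2, an endocytic adaptor gene, had 14 Sox2BiD-only and 4 shared regions, and Twist2, encoding a mesenchymal helix-loop-helix factor, 13 and 4. The strongest Sox2BiD-only region of Dab2, 39.7 kb upstream, scored 755 with 59 tags and stood at the top 1.81% of its list, and that of Twist2, 78.7 kb upstream, scored 595. Snai1 and Zeb1, repressors of epithelial genes, had 6 and 16 Sox2BiD-only regions beside 1 and 12 shared.

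Genes for BAF subunits, the complex that the fused domain belongs to, had Sox2BiD-only regions at 24 of 28 members (85.7%, beside 66.7% of all genes) and shared regions at 22 (78.6%, beside 50.5%). The Sox2BiD-only part of their regions, 61.2% (53.7 to 68.4), was near the 58.0% of all genes. A Sox2BiD-only summit lay at the promoters of 21 members (75%, beside 35.5% of all genes), and a shared summit at those of 10 (35.7%, beside 21.9%). Of the 34 Sox2BiD-only promoter regions, 22 also had a peak of another factor. Among all Sox2BiD-only promoter regions, at start sites of any gene, 66.7% had one. None of the 34 held the SOX motif, beside 2.58% of all Sox2BiD-only promoter regions, and 34 regions are too few to show a lack of it. Dpf3, encoding a histone-reading subunit, had 8 Sox2BiD-only regions with scores of 50.1 to 269 and no other kind, and its promoter region scored 115 with 19 tags and was found in all 6 other libraries. Ss18 had 8 Sox2BiD-only and 2 shared regions. Arid1a, encoding a DNA-binding subunit of BAF, had 7 and 2, and its 2 shared regions scored 869 and 614 in Sox2BiD and 625 and 225 in native Sox2. At Smarca4, the gene for BRG1, 3 shared, 5 Sox2BiD-only and 1 native-only regions were found, with the strongest Sox2BiD-only score at 443 and 45 tags. Actl6b, the neuronal actin-like subunit gene, had no region (3.57% of the list, beside 5510 of all 21924 genes).

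**Figure D5:**
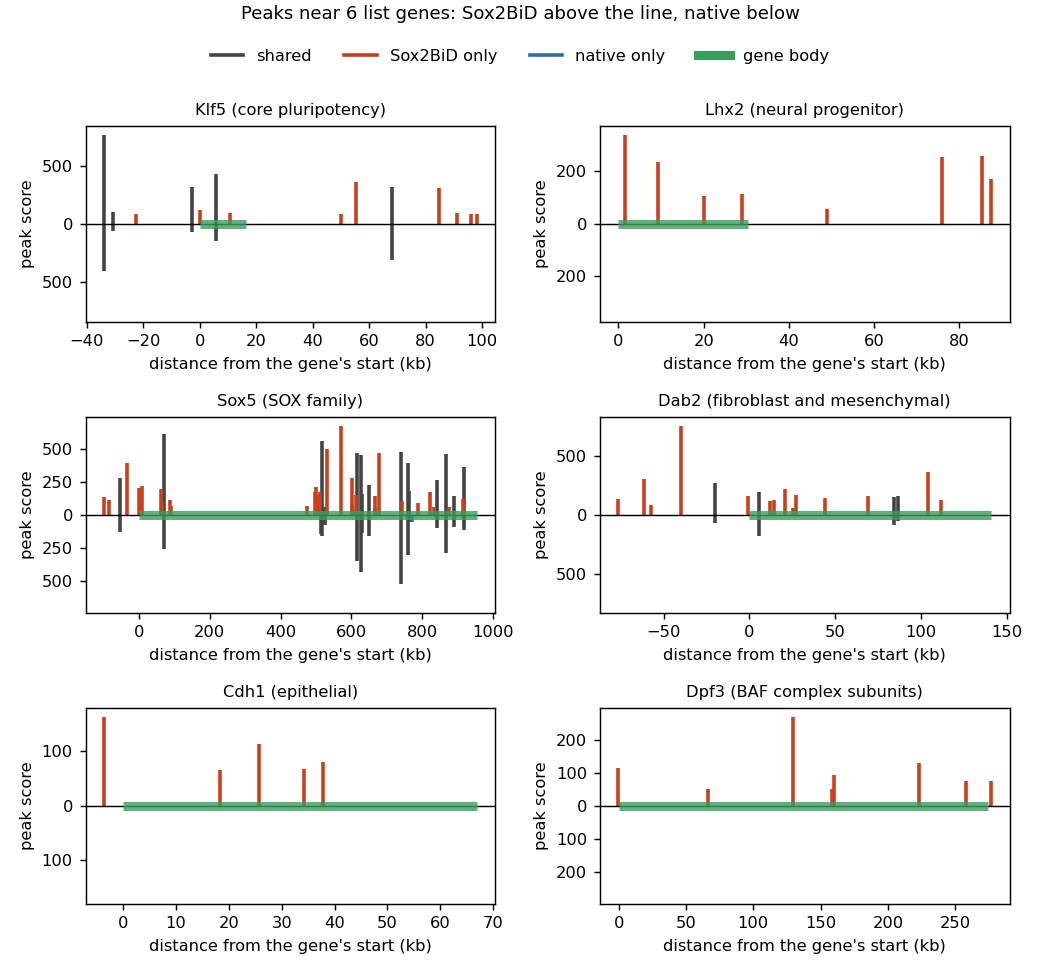
Peak scores against distance from the gene's start (kb, positive into the gene) for the member of each list with the largest excess of Sox2BiD-only regions; Sox2BiD scores point up, native scores down, and the green bar is the gene body. Lhx2, Cdh1 and Dpf3 have Sox2BiD-only peaks (8, 5 and 8) and no native peak, each panel has its own score scale, and the highest score is that of a shared Klf5 region (772 and 409).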

How the data were processed

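Peaks were called by the authors with MACS 1.4.2 on reads that had been trimmed (Trim Galore 0.6.4), aligned to mm10 (Bowtie2 2.4.5) and cleared of repetitive, mitochondrial and poorly mapped reads (SAMtools 1.16.1). No control library is named in the sources used here. The deposited files hold 1 peak list and 1 summit list per library. In them, the deposited score is 10 times the negative log10 of the caller's p-value (at least 50, its threshold of 1e-05), and the deposited summit height is a signal in tags, not scaled to depth. The study's methods speak of merging replicates ahead of peak calling and its reporting form of CUT&Tag without biological replicates, so whether a list pools runs is unclear. Labels and methods name different kits and cell numbers.

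Peaks of both forms were merged at 1 bp of overlap. Summits were annotated with GENCODE M21: promoters lay within 2 kb of a start site of any gene, and regions were assigned to the nearest protein-coding gene within 100 kb. Motifs were matched exactly, on both strands, within 50 bp of the summit, which in shared regions was that of Sox2BiD. The 21 regions off the placed chromosomes were left out of annotation. Python 3.11.15, pandas 2.3.3 and SciPy 1.17.1 were used, and merging and motif search were tested on simulated data. Genes were named by rule: the nearest genes of the 5 highest-scoring regions of a class, the 10 genes with most Sox2BiD-only and 5 with most native-only regions, up to 5 members of each of 6 lists by excess of Sox2BiD-only regions or by native-only or no regions, and Sox2. Further list members were named after their values were seen. The members and lists were chosen with earlier results of these data known.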

Additional observations from a re-analysis of the deposited data

Results flagged for a closer look

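The ratio of regions found with the BiD fusion only to regions found with the native factor only went in opposite directions for Sox2 and Nr5a2. On the log2 scale it was 3.15 for Sox2 (70682 against 7954 regions) and -1.99 for Nr5a2 (10659 against 42474). Both pairs were merged and counted in the same way. With 1 library per group the difference was not tested. By the study's reporting form, in both pairs the form with more regions of its own had fewer read pairs than the other.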

How the results depend on the processing

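No paired analysis was possible because each group holds 1 library. Each of 14 results was recomputed under its alternatives, 82 values in all. Of these, 46 stayed within the counting interval or within 1.5 times the count, and 36 did not. Requiring 50% overlap moved none beyond those limits. No difference or ratio changed direction. Counts of regions and genes were judged by size alone, and their order did change. As reported, Sox2BiD-only regions outnumbered shared ones (70682 against 49675). With the Sox2BiD list cut to the length of the native list they did not (20525 against 37597), nor with 20000 peaks of each list (8220 against 11779). The gene counts of these 2 classes changed order in the same way. Below, a difference is single-form minus shared regions in percentage points, and a ratio is single-form over shared.

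With the Sox2BiD list reduced to its 58162 highest-scoring peaks, the length of the native list, Sox2BiD-only and native-only regions numbered 20525 and 20057, and their genes 8832 and 6385. Presence in other libraries then differed by -12.9 (Sox2BiD only) and -19.9 (native only), the native-only promoter share by -5.54, and the ratios were 0.326 for native-only SOX and 0.798 and 0.621 for AP-1. With 20000 peaks of each list there were 11779 shared and 8220 Sox2BiD-only regions at 5114 and 4593 genes, promoter differences of 4.14 and -3.38, presence differences of -11.4 and -12.9, a native-only SOX ratio of 0.384 and AP-1 ratios of 0.898 and 0.738. A score of at least 100 left 31457 shared and 5032 native-only regions, with a promoter difference of 4.86 (Sox2BiD only), presence differences of -12.3 and -24.1, a native-only SOX ratio of 0.293 and AP-1 ratios of 0.897 and 0.480. Matching by summits within 100 bp gave 19570 native-only regions. Promoters of 500 bp gave differences of 1.19 and -5.78, a summit of the other library inside the region a presence difference of -18.2 (Sox2BiD only), and a gene window of 20 kb 1829 genes with native-only regions. The native summit in shared regions, an alternative chosen after seeing the data, gave Sox2BiD-only ratios of 1.77 for SOX and 0.893 for AP-1. The first 3 alternatives keep fewer peaks and choose them by score, so number and score change together. The cause of these changes was not tested. The number of reads left after duplicates were removed is not given in the sources used here, and no count was scaled to depth.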
